A study of Homo sapiens with 12 samples.

Results

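The mRNAs of 9 cyclins were followed in U2OS cells after RNA polymerase II transcription was blocked. They were the D-type cyclins CCND1, CCND2 and CCND3, the E-type cyclins CCNE1 and CCNE2, cyclin A2 (CCNA2), the B-type cyclins CCNB1 and CCNB2, and cyclin F (CCNF). The genes were picked by name, by a rule that uses no measured value although earlier results of these data were known, and are 9 of the 22379 genes in the table. All 9 passed the filter for testing, a mean value of at least 10 over the untreated libraries, which left 13811 genes. Polyadenylated RNA was sequenced in 12 libraries, 2 replicates for each of 6 groups.

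Every group was U2OS, a human osteosarcoma line, carried through a transient transfection with a Cas9 and guide plasmid and selected with puromycin, so each group was an uncloned pool. The guide was nontargeting (NONT), directed at NUP93 (NUP93KO), a scaffold protein of the nuclear pore, or directed at EXOSC5 (EXOSC5KO), a subunit of the RNA exosome, which degrades RNA from its 3′ end. Each genotype was given 1 µM triptolide for 8 h or the vehicle DMSO only, and the vehicle libraries are called untreated, as in their titles. Triptolide binds XPB, the helicase subunit of TFIIH, and stops RNA polymerase II from initiating. With little new mRNA made, what remains after the drug is mostly mRNA that was present before it. The study made the knockout pools to slow the loss of mRNA under the drug and so separate it from loss of the polymerase itself.

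Cyclins are the regulatory subunits of cyclin-dependent kinases. D-type cyclins join CDK4 and CDK6 and begin the phosphorylation of the retinoblastoma protein in G1, E-type cyclins join CDK2 at the entry to S phase, cyclin A2 serves CDK2 and then CDK1 in S and G2, and the B-type cyclins carry CDK1 into mitosis. Cyclin F binds no kinase of its own and is the substrate receptor of an SCF ubiquitin ligase. The E, A, B and F mRNAs rise and fall with the cell cycle, whereas D-type cyclin mRNAs follow growth signals.

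Values are a spike-in-normalised signal. ERCC RNAs, synthetic transcripts of known amount, were added per counted cell, and each library was scaled so that its ERCC reads matched, so the signal is meant to follow mRNA per cell. In these bulk samples, fewer cells of a type and less RNA per cell cannot be told apart. Depth was about 8590000 to 11940000 reads per library, and 1 read was worth 0.488 to 1.76 units of signal. The U2OS markers VIM, SPARC and COL1A1 were at least 7368 in every library, whereas RUNX2 ranged from 9.56 to 403.5, ALPL from 53.1 to 246 and COL1A2 from 4.05 to 42.0. Of markers of other cell types, EPCAM and CDH1 stayed between 13.5 and 69.7 and PTPRC, PECAM1 and ALB between 0 and 9.99. EXOSC5 was lower in both untreated EXOSC5KO libraries (216 and 148) than in untreated NONT (299 and 481), and NUP93 was 1395 and 1432 in untreated NUP93KO against 1753 and 2489 in untreated NONT. Under triptolide, NUP93 overlapped between NUP93KO (801 and 1019) and NONT (1007 and 899), so the guide was not visible in its mRNA there. The untreated NONT libraries stood apart from each other: replicate 1 lay below replicate 2 by 0.51 on the log2 scale at the median gene, and in 8 of the 9 cyclins.

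Promoter sequence is shown for the cyclins that were lower together in untreated EXOSC5KO cells and for cyclin F, the cyclin mRNA most depleted by the drug. RefSeq promoters (GRCh38.p14) were read for CCND3, CCNE1, CCNA2, CCNB1, CCNB2 and CCNF. Those of CCND1, CCND2 and CCNE2 were not read. Each window printed here ends at the base before the annotated start of the gene and reads 5′ to 3′ on the strand of the gene, which is the plus strand except for CCNA2. The CCND3 windows, which are not printed, are on the minus strand and lie inside the annotated span of that gene. Capitals mark CCAAT on either strand, the box bound by NF-Y, and on either strand TTTGAA and its variant form TTTAAA, versions of the cell cycle homology region through which the MuvB complex acts on genes of G2 and mitosis.
CCNA2, chr4:121823884-121824133: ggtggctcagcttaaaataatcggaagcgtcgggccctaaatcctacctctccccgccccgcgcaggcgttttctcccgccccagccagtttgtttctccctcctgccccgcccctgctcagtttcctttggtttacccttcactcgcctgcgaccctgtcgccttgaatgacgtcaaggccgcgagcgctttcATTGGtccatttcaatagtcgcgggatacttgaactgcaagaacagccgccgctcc
CCNB1, chr5:69166900-69167134: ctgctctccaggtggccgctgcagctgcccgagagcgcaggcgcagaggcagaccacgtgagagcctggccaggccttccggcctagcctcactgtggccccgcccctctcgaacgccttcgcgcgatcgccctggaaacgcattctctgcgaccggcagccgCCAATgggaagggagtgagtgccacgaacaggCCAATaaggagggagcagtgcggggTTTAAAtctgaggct
CCNB2, chr15:59104896-59105125: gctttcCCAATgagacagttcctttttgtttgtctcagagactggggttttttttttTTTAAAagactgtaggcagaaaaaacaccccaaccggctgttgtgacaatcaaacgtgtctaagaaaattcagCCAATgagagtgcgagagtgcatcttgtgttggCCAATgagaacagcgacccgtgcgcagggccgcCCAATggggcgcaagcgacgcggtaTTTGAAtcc
CCNF, chr16:2429197-2429393: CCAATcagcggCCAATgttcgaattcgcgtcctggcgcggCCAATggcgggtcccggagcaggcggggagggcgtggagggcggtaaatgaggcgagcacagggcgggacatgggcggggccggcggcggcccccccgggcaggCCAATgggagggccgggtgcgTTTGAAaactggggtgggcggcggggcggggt

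The CCNB2 and CCNF windows each held 4 CCAAT motifs, the CCNB1 window 2 and the CCNA2 window 1. Among 35116 RefSeq promoters read over the 250 bases before the start, 32.01% held at least 1 CCAAT, 9.531% at least 2 and 2.927% at least 3. TTTGAA was present once in CCNB2 and once in CCNF, and in 13.32% of all promoters. TTTAAA was present once in CCNB1 and once in CCNB2, and in 11.32% of all promoters. The motifs did not overlap each other. Of 3 windows for CCND3, 2 held 1 CCAAT each. In the CCNE1 window no CCAAT or TTTGAA was found and TTTAAA occurred once. These are matches of letters and not measured sites. Other versions of the homology region were not searched, so a window without a marked one, as for CCNA2, may still hold one.

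In untreated NONT cells, signal per kb of transcript, which allows genes of different length to be compared, was highest for CCNB1 at 2468 ± 701 (SD, n = 2). CCND1 at 1192 ± 314, CCNB2 at 1172 ± 225 and CCND3 at 1066 ± 269 came next, and each of these overlapped its neighbour in the order. CCNA2 at 803 ± 206, CCNE1 at 570.2 ± 160.4 and CCNF at 486 ± 129.7 also overlapped neighbour by neighbour. CCND2 at 293 ± 29.5 and CCNE2 at 96.0 ± 9.94 were the lowest and were apart from the others. CCNB1 also led in both untreated knockout pools, with 2158 ± 284 in NUP93KO and 1753 ± 54.2 in EXOSC5KO, and CCNE2 was last in both.

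**Figure D1:**
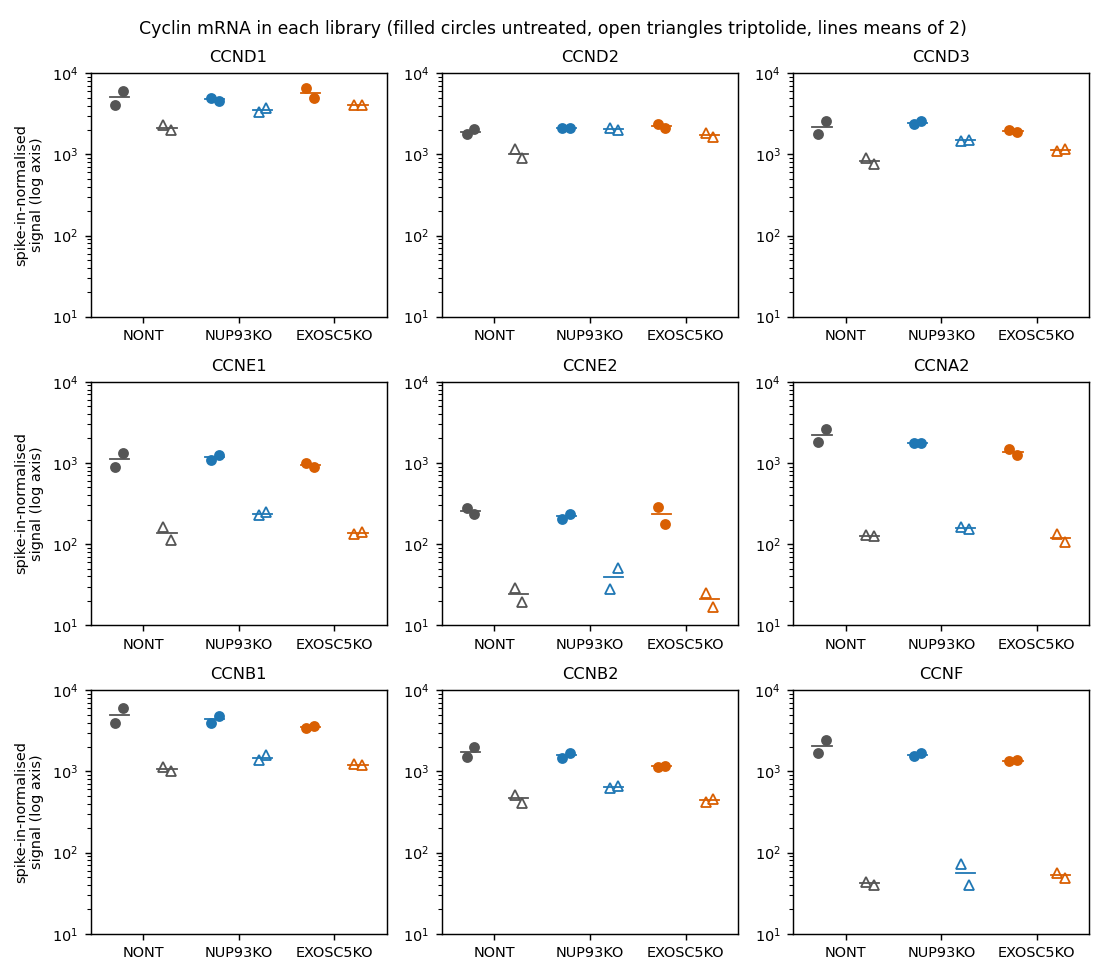
Spike-in-normalised signal of each cyclin mRNA (log axis, same range in each panel) in all 12 libraries, by genotype, with filled circles for untreated libraries, open triangles for triptolide and lines at the mean of 2. The D-type cyclins kept signals of at least 754 in every treated library, whereas CCNF and CCNE2 did not exceed 72.2 in any of them.

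The loss of cyclin mRNA under triptolide was graded by the type of cyclin, smallest for the D type and largest for cyclin F. In NONT cells all 9 fell, against 90.0% of all tested genes, as judged by an adjusted p-value (limma, Benjamini-Hochberg) under 0.05. Their median log2 fold change was −2.21, and that of all tested genes was −1.62. Between 2.03% (CCNF) and 53.8% (CCND2) of the untreated signal remained. In NUP93KO cells 7 of 9 fell against 55.1% of all genes, with a median of −1.56 over the cyclins and −0.92 over all genes, and in EXOSC5KO cells 7 of 9 fell against 64.3%, with medians of −1.55 and −1.08. CCND1 and CCND2 did not pass the threshold in either knockout, and no cyclin was higher in any genotype.

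The D-type cyclins kept the most mRNA. CCND1 (ENSG00000110092, chromosome 11, 69641156 to 69654474, plus strand, 5 exons), whose product is the D-type cyclin most often amplified in tumours, had signals of 4113 and 5993 in untreated NONT cells and 2288 and 1972 after triptolide. In NUP93KO it was 5008 and 4523 untreated and 3306 and 3759.7 treated, and in EXOSC5KO 6509 and 4892 untreated and 4006 and 4082 treated. Treated and untreated libraries did not overlap in any genotype, and the treated NONT libraries were the lowest of all 12. The log2 fold change was −1.22 ± 0.21 (SE, adjusted p = 4.64e-05) in NONT, −0.43 (adjusted p = 0.0881) in NUP93KO and −0.48 (adjusted p = 0.0517) in EXOSC5KO, by limma as throughout. The EXOSC5KO change passed the threshold under 4 alternative settings.

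CCND2 (ENSG00000118971, chromosome 12, 4269771 to 4305353, plus strand, 5 exons) had the longest transcript of the 9, 6493 bases, of which 5344 lie after the stop codon. Its signal was 1769 and 2039.6 in untreated NONT and 1153 and 896 after the drug, a log2 fold change of −0.90 ± 0.18 (adjusted p = 0.000257). In NUP93KO, signals of 2114 and 2102 untreated and 2139 and 1986 treated overlapped, with 97.8% retained and an adjusted p of 0.895. This was the only pair of treated and untreated groups that overlapped among the 27 made by 9 cyclins and 3 genotypes. In EXOSC5KO the signal went from 2378 and 2125 to 1839.8 and 1622, and 76.9% remained (adjusted p = 0.0781).

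CCND3 (ENSG00000112576, chromosome 6, 41934934 to 42050357, minus strand, 5 exons) was the D-type cyclin that fell in all 3 genotypes. Its untreated signals were 1774 and 2545 in NONT, 2361 and 2554 in NUP93KO and 1972 and 1876 in EXOSC5KO. Its treated signals were 892 and 754 in NONT, 1468 and 1504 in NUP93KO and 1093 and 1162 in EXOSC5KO. Untreated libraries were above treated libraries in each genotype. Log2 fold changes were −1.37 ± 0.19 in NONT, −0.72 ± 0.19 in NUP93KO and −0.77 ± 0.19 in EXOSC5KO, with a highest adjusted p of 0.00428.

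The E-type cyclins kept far less. CCNE1 (ENSG00000105173, chromosome 19, 29811991 to 29824312, plus strand, 12 exons) had untreated signals of 893 and 1336 in NONT, 1091 and 1252 in NUP93KO and 1006 and 895 in EXOSC5KO, and treated signals of 164 and 113, 225 and 247 and 134 and 143 in the same order. Every treated library lay below every untreated one. The log2 fold changes were −2.99 ± 0.24, −2.30 ± 0.24 and −2.77 ± 0.24, with adjusted p no higher than 5.83e-07. CCNE2 (ENSG00000175305, chromosome 8, 94879770 to 94896678, minus strand, 12 exons), the scarcer of the pair, had untreated signals of 275 and 238, 202 and 235 and 290.4 and 179, and treated signals of 29.1 and 19.6, 27.7 and 51.4 and 25.0 and 17.0, again in NONT, NUP93KO and EXOSC5KO. Its log2 fold changes were −3.37, −2.50 and −3.41, with adjusted p no higher than 3.60e-05. Its treated signals rest on few reads, and the SE of its fold changes, 0.39, was the largest of the 9. CCNE1 exceeded CCNE2 per kb by 4.43 to 7.68 times in untreated libraries and by 6.58 to 11.5 times in treated libraries, ranges that overlap.

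CCNA2 (ENSG00000145386, chromosome 4, 121816444 to 121823883, minus strand, 8 exons) had NONT signals of 1807 and 2606 without triptolide and 128 and 125 with it. In NUP93KO it was 1740 and 1781 untreated and 161 and 152 treated, and in EXOSC5KO 1476 and 1260.1 untreated and 134 and 105 treated. The highest treated library was at 161 and the lowest untreated library at 1260.1. Between 5.75% (NONT) and 8.90% (NUP93KO) remained, and log2 fold changes ran from −4.09 ± 0.22 in NONT to −3.48 ± 0.22 in NUP93KO, all with adjusted p no higher than 3.61e-09.

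The B-type cyclins stood between the D-type cyclins and the rest. CCNB1 (ENSG00000134057, chromosome 5, 69167135 to 69178245, plus strand, 9 exons), the main partner of CDK1 at mitotic entry, had untreated signals of 4001 and 6012 in NONT, 3971 and 4786 in NUP93KO and 3479.8 and 3635 in EXOSC5KO, which became 1124 and 1002, 1376 and 1584 and 1244 and 1186 under the drug. CCNB2 (ENSG00000157456, chromosome 15, 59105126 to 59125045, plus strand, 9 exons), which has the shortest transcript of the 9 at 1488 bases, had untreated signals of 1506 and 1981, 1486 and 1668 and 1151 and 1165, which became 518 and 410.3, 628 and 670.2 and 414 and 463 in the same order of genotypes. Neither gene had overlapping groups. CCNB1 retained 21.2%, 33.8% and 34.2% in NONT, NUP93KO and EXOSC5KO, and CCNB2 retained 26.6%, 41.2% and 37.9%. In NONT the log2 fold changes were −2.21 ± 0.20 for CCNB1 and −1.90 ± 0.20 for CCNB2, and the highest adjusted p over both genes and all genotypes was 3.74e-05.

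Cyclin F lost the most. CCNF (ENSG00000162063, chromosome 16, 2429394 to 2458854, plus strand, 17 exons) had untreated signals of 1667 and 2443 in NONT, 1535 and 1677 in NUP93KO and 1348 and 1373 in EXOSC5KO. After the drug they were 43.1 and 40.4 in NONT, 72.2 and 39.7 in NUP93KO and 55.7 and 48.9 in EXOSC5KO. The highest treated library was thus below the lowest untreated library by more than an order of magnitude in each genotype. Only 2.03%, 3.48% and 3.84% of the untreated mean remained, for log2 fold changes of −5.56 ± 0.28, −4.88 ± 0.28 and −4.68 ± 0.28, with adjusted p no higher than 1.82e-09.

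**Figure D2:**
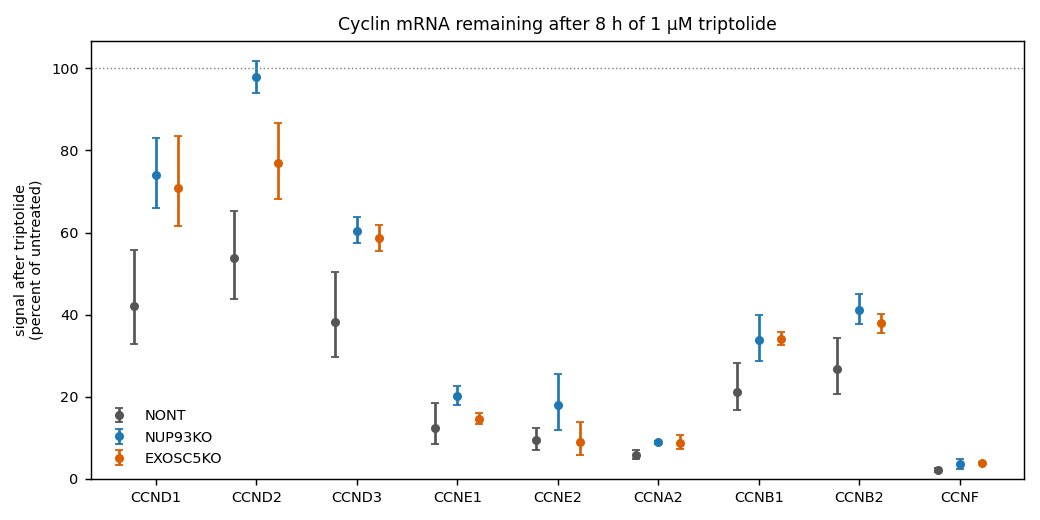
Mean signal after triptolide as a percent of the untreated mean for each cyclin (vertical axis), coloured by genotype, with bars from the lowest to the highest of the 4 percentages that single treated and untreated libraries can give. The D-type cyclins lie highest and CCNF lowest in each genotype, and the dotted line marks no loss.

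Read against all tested genes, whose position does not depend on how libraries are scaled, the spread among the cyclins was wide. In NONT the fold change of CCNF was at the 2.78 percentile of the tested genes, where 0 is the gene that fell most, CCNA2 at 9.19, CCNE2 at 15.4 and CCNE1 at 20.0. CCNB1 at 33.6 and CCNB2 at 40.9 fell somewhat more than the typical gene, whereas CCND3 at 59.8, CCND1 at 67.1 and CCND2 at 85.2 fell less. NUP93KO gave 2.02 for CCNF, 7.89 for CCNA2 and 91.2 for CCND2, and EXOSC5KO gave 2.74, 8.02 and 83.9. CCNE2 was at 16.9 in NUP93KO and 8.81 in EXOSC5KO.

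**Figure D3:**
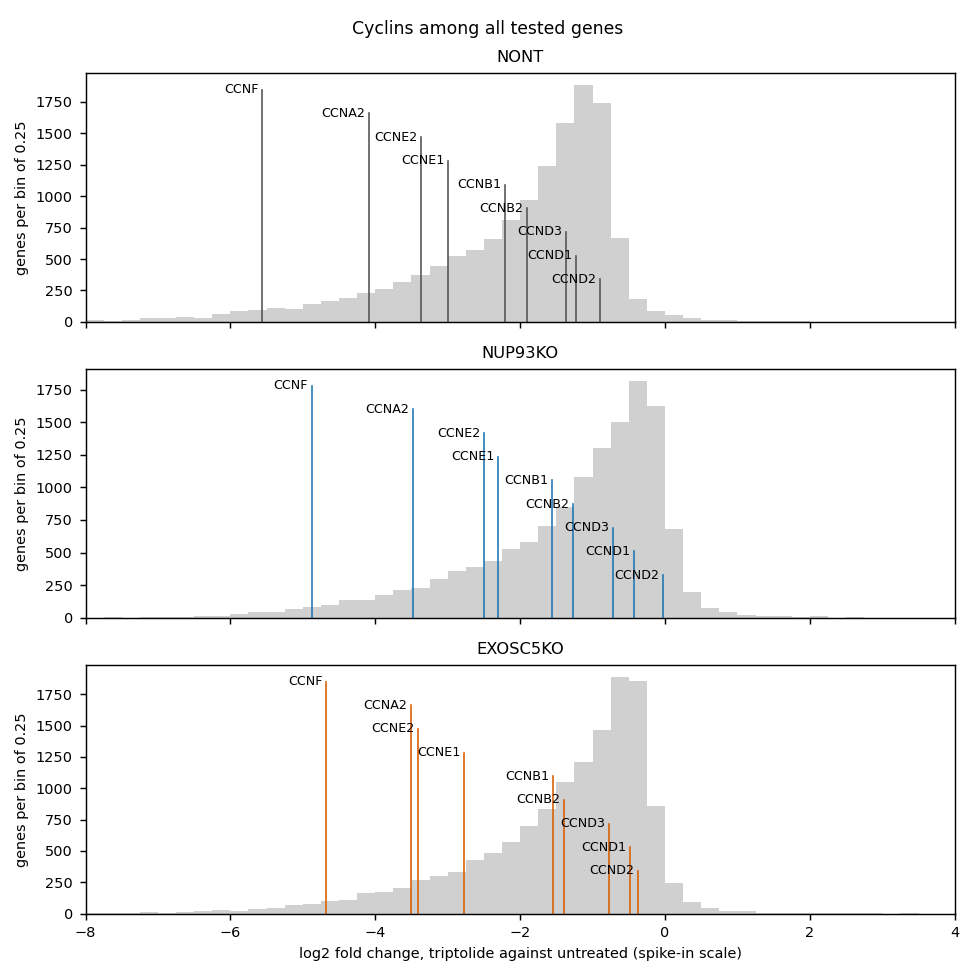
Log2 fold change after triptolide on the spike-in scale (horizontal axis, −8 to 4) of the tested genes in that range, as grey bars of genes per bin of 0.25, with a labelled line at each cyclin, in the 3 genotypes. Line heights only separate the labels; in NONT, CCNF lies at −5.56 in the lower tail and CCND2 at −0.90 in the upper part.

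Changes relative to other mRNAs were tested after scaling that does not use the spike-ins. With each library centred on its median gene, 4 cyclins were lower in NONT (CCNE1, CCNE2, CCNA2 and CCNF, against 20.1% of all genes) and 4 higher (CCND1, CCND2, CCND3 and CCNB2, against 45.3%). This centring left the median fold change of all tested genes at 0.55, 0.46 and 0.47 in NONT, NUP93KO and EXOSC5KO and not at 0. Values are therefore also given by the median of ratios, which put that median at −0.02 in NONT, −0.041 in NUP93KO and −0.018 in EXOSC5KO. By the median of ratios, 6 cyclins were lower in NONT (30.5% of all genes) and 3 higher (26.8%): CCNB1 joined the lower group at −0.57, and CCNB2 turned from 0.26 ± 0.086 (adjusted p = 0.0200) under median centring to −0.26 (adjusted p = 0.0214).

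In the knockouts the D-type cyclins were again higher and CCNE1, CCNE2, CCNA2 and CCNF lower, but CCNB2 was not called under median centring (0.10, adjusted p = 0.309, in NUP93KO and 0.14, adjusted p = 0.174, in EXOSC5KO). Median centring called 4 cyclins lower and 3 higher in NUP93KO (20.7% and 43.3% of all genes) and in EXOSC5KO (19.8% and 43.3%). The median of ratios called 6 lower and 3 higher in NUP93KO (30.0% and 26.2%) and in EXOSC5KO (28.9% and 25.8%). CCND1, CCND2 and CCND3 were the cyclins called higher in both knockouts under both scalings. A further scaling, to the same total in each library, called fewer of them: CCND2 was still higher in NONT (0.44), NUP93KO (0.54) and EXOSC5KO (0.41), CCND1 was called in EXOSC5KO (0.31) but not in NONT or NUP93KO, and CCND3 was called lower in NUP93KO (−0.16) and was not called in NONT or EXOSC5KO. CCNE1, CCNE2, CCNA2 and CCNF were lower in every genotype under all of these scalings. CCND1 by the median of ratios was 0.42 in NONT, 0.46 in NUP93KO and 0.59 in EXOSC5KO, and CCNF was −3.94, −3.99 and −3.61.

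The make-up of the cyclin mRNA pool moved accordingly, and this measure needs no scaling between libraries. D-type cyclins made up 31.2% to 42.0% of the summed cyclin signal per kb in the 6 untreated libraries and 52.3% to 63.5% in the 6 treated libraries, with no overlap. E-type cyclins held 8.07% to 9.22% untreated and 2.78% to 4.31% treated. The share of CCNA2 was 7.29% to 9.90% untreated and 1.36% to 2.44% treated, and that of CCNF 4.66% to 6.03% untreated and 0.278% to 0.544% treated, again with no overlap. The B-type share overlapped, at 36.4% to 44.8% untreated and 31.9% to 41.3% treated. Within a library, CCND1 exceeded CCNF per kb by 2.45 to 4.82 times without drug and by 45.7 to 94.5 times with it. CCNB1 exceeded CCNA2 by 3.0 to 3.91 times and 10.8 to 15.2 times. Among the D-type cyclins, the share of CCND2 was 10.5% to 13.6% untreated and 14.0% to 18.0% treated, so its part of the summed D-type signal rose in all genotypes.

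**Figure D4:**
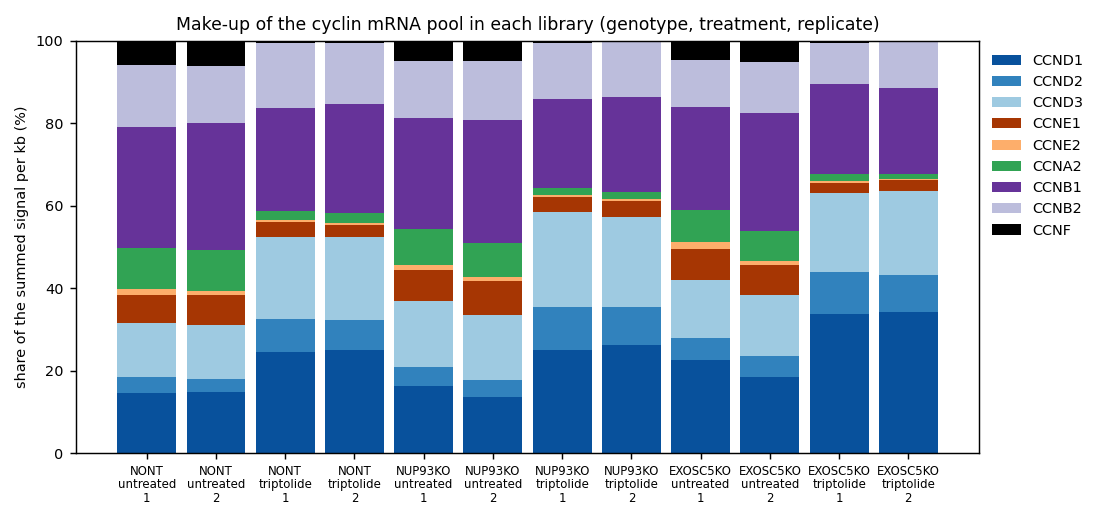
Share of the summed signal per kb taken by each of the 9 cyclins (stacked bars adding to 100%) in each of the 12 libraries, labelled by genotype, treatment and replicate. The blue D-type bars reach 52.3% to 63.5% in treated libraries, and the black CCNF bars shrink from at least 4.66% to at most 0.544%.

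The 3′ untranslated regions were read for ATTTA, the pentamer of AU-rich elements, which are bound by proteins that hasten or delay mRNA decay. Read along the mRNA sequence, the count was 7 in CCND1, 8 in CCND2, 2 in CCND3, 0 in CCNE1 and 10 in CCNE2. It was 3 in CCNA2, 4 in CCNB1, 0 in CCNB2 and 1 in CCNF. Among tested genes, 74.5% of 12784 such regions held at least 1 ATTTA, with a median of 2. In NONT, CCND2 with 8 retained 53.8% and CCNE2 with 10 retained 9.49%, and CCNE1 and CCNB2, both with 0, retained 12.4% and 26.6%. CCND1, CCND3, CCNA2, CCNB1 and CCNF retained 42.2%, 38.1%, 5.75%, 21.2% and 2.03%. A relation between count and retention was not tested. The regions of CCND2, CCNE2, CCNE1 and CCNB2 were 5344, 1408, 535 and 168 bases long, beside a median of 1387.5 among tested genes. The counts were not corrected for this length. The longer TTATTTATT, present in 9.93% of all regions, was found in none of the 9.

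Whether the knockouts changed the response of the cyclins was tested as a difference of fold changes. The responses of both knockouts are compared with the same NONT libraries. On the spike-in scale no cyclin passed in NUP93KO (0.775% of all genes did, in either direction), in EXOSC5KO (0.333%) or between the knockouts (0.0217%). At an unadjusted p under 0.05 there were 5 cyclins higher in NUP93KO than in NONT (CCND1, CCND2, CCND3, CCNB1 and CCNB2), 4 in EXOSC5KO (CCND1, CCND3, CCNB1 and CCNF) and 0 between the knockouts, where the same threshold took in 41.6%, 23.5% and 4.32% of all genes. The difference for NUP93KO minus NONT was 0.87 ± 0.26 for CCND2 (adjusted p = 0.0640) and 0.79 ± 0.29 for CCND1 (adjusted p = 0.0793). For EXOSC5KO minus NONT, CCND1 gave 0.74 ± 0.29 (adjusted p = 0.185), whereas CCNE1 gave 0.22 ± 0.34 and CCNE2 −0.038 ± 0.55.

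The cyclin differences lay close to those of all genes. Their median was 0.68 for NUP93KO minus NONT beside 0.74 over all tested genes, and 0.58 for EXOSC5KO minus NONT beside 0.57. The count turned on a single library: without replicate 1 of untreated NONT, 7 cyclins passed as higher in NUP93KO (51.0% of all genes) and 7 in EXOSC5KO (38.2%), with the remaining untreated NONT library assumed to vary like the other groups. With libraries centred on the median gene, no cyclin differed in response for NUP93KO minus NONT (0.0217% of all genes did), EXOSC5KO minus NONT (0.0434%) or EXOSC5KO minus NUP93KO (0.0652%), and 0, 1 (CCNE1) and 0 had an unadjusted p under 0.05, beside 9.72%, 10.4% and 9.54% of all genes.

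Without the drug, the knockout pools were compared with NONT. In NUP93KO no cyclin passed on the spike-in scale, where 0.0217% of all genes did, or after centring on the median gene, where 0.898% did, and the counts at an unadjusted p under 0.05 were 0 and 1, beside 4.20% and 10.7% of all genes. That gene was CCND3, at 0.29 ± 0.06 (adjusted p = 0.0620) after centring. Centred values of 2.94 and 2.92 in NUP93KO did not overlap those of 2.63 and 2.65 in NONT, whereas the spike-in signals of 2361 and 2554 and 1774 and 2545 did.

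In untreated EXOSC5KO, cyclin A2 and both B-type cyclins were lower than in NONT relative to other mRNAs. After centring on the median gene these 3 passed (3.46% of all genes were lower, 2.23% higher). CCNA2 was at 1.97 and 1.85 log2 units above the median gene in EXOSC5KO and at 2.66 and 2.69 in NONT, a difference of −0.76 ± 0.13 (adjusted p = 0.00871). CCNB1 was at 3.21 and 3.38 against 3.80 and 3.89, a difference of −0.55 ± 0.082 (adjusted p = 0.00382). CCNB2 was at 1.61 and 1.74 against 2.39 and 2.29, a difference of −0.67 ± 0.086 (adjusted p = 0.00223). Groups did not overlap for any of the 3. CCNF was similar in size at −0.66 but did not pass (SE 0.23, adjusted p = 0.147). It was at 1.84 and 1.98 in EXOSC5KO and at 2.54 and 2.59 in NONT, again with no overlap. The SE pools the spread of all 6 groups, and CCNF was at −0.73 and −1.63 in treated NUP93KO. CCND1 and CCND2 had differences of 0.10 and 0.15 (adjusted p = 0.726 and 0.501).

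On the spike-in scale the same contrast called none of the 9, with 0.521% of all genes called in either direction, and CCNA2, CCNB1 and CCNB2 had an unadjusted p under 0.05, as did 8.49% of all genes. Their signals were 1476 and 1260.1 for CCNA2, 3479.8 and 3635 for CCNB1 and 1151 and 1165 for CCNB2, each below both NONT libraries. The median of ratios called 4 cyclins lower (3.74% of all genes), CCND3 joining at −0.24, and scaling to the same sum of mitochondrially encoded mRNAs called 5 (5.21%), with both CCND3 and CCNF added to the first 3. The CCNA2 call was lost in 3 of the 4 fits that left out a NONT or EXOSC5KO untreated library, at an adjusted p of up to 0.0732, and the CCNB1 and CCNB2 calls held in all of them.

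**Figure D5:**
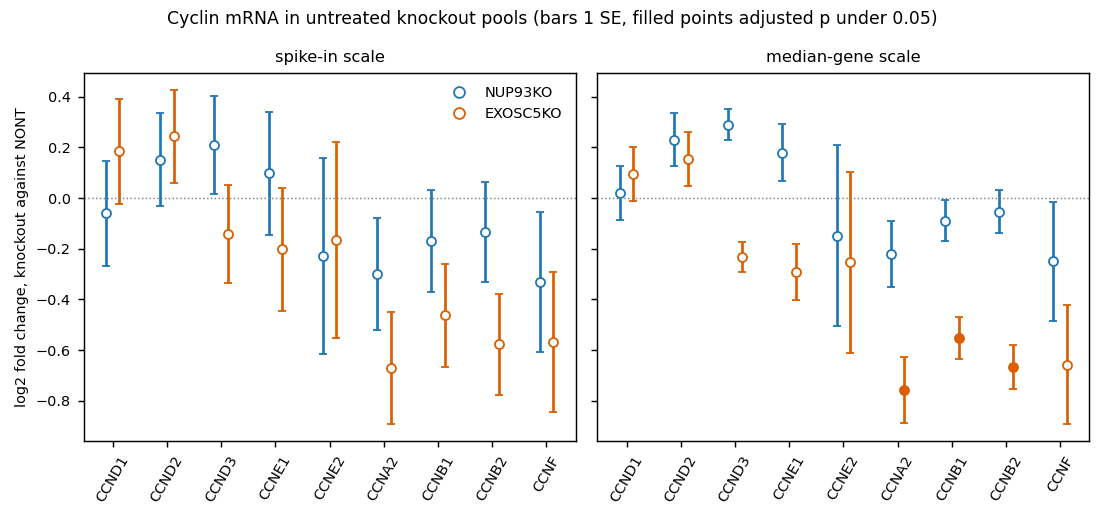
Log2 fold change of each cyclin in untreated NUP93KO and EXOSC5KO against NONT (vertical axis), on the spike-in scale (left) and with libraries centred on the median gene (right), with bars of 1 SE and filled points where the adjusted p was under 0.05. In EXOSC5KO, CCNA2, CCNB1, CCNB2 and CCNF lie lowest on both scales, and CCNA2, CCNB1 and CCNB2 pass on the right.

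The kinases, inhibitors and regulators around the cyclins were described from lists of 69 tested genes. In NONT all 69 fell under triptolide, in NUP93KO 54 and in EXOSC5KO 59, beside the 90.0%, 55.1% and 64.3% of all genes. The list of kinases and their assembly factors had a median of −1.33 in NONT. It ran from CDK7, the kinase of TFIIH that also activates CDKs, at −5.68 ± 0.47 to the CDK-binding protein CKS1B at −0.88 ± 0.20. CDK7 had signals of 248 and 574 untreated and 8.25 and 4.87 treated in NONT. In NUP93KO its signals were 246 and 117 untreated and 48.1 and 48.4 treated, a log2 fold change of −1.79 ± 0.47. On the spike-in scale, 2 of the 69 genes passed as higher in the response of NUP93KO minus NONT, beside 0.775% of all genes in either direction. The CDK inhibitors had a median of −3.10, with p27 (CDKN1B) going from 363 and 399.9 to 0 and 3.96 in NONT and CDKN2D from 107 and 149 to 44.2 and 19.5. All 6 tested inhibitors fell in each genotype.

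The retinoblastoma and E2F list had a median of −2.33 in NONT, where all 13 fell. It spanned E2F6, a repressor of the E2F family, from 436 and 468 to 6.15 and 6.39, and the pocket protein RBL2, from 344 and 552 to 329 and 254 (−0.59 ± 0.25). In both knockouts 9 of the 13 fell. The MuvB, B-MYB and FOXM1 list, whose products act on promoters such as those printed above, had a median of −1.65, from LIN54 at −4.58 to RBBP4 at −0.98, and 7 of 7 fell in NONT.

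Genes of the ubiquitin ligases that mark cyclins for destruction, and of their regulators, had a median of −2.29 in NONT, with 13 of 13 lower. FBXO5, which inhibits the anaphase-promoting complex, had NONT signals of 598 and 903 untreated and 1.24 and 2.52 treated, the latter resting on a few reads. The SCF adaptor SKP1 fell in NONT by 0.72 on the log2 scale and had signals of 1479.7 and 1889 untreated and 1740.1 and 1832 treated in NUP93KO. Kinases and phosphatases that switch CDK1 and CDK2 had a median of −2.85, all 6 lower in each genotype, from the phosphatase CDC25A at −6.07 ± 0.36 to the kinase PKMYT1 at −1.70 ± 0.24. The other cyclins, which include those of transcription kinases, had a median of −2.39, from CCNO at −4.66 to CCNYL1 at −0.96, with 15 of 15 tested lower in NONT.

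In untreated EXOSC5KO, centring on the median gene called 16 of the 69 lower and 1 higher, beside 3.46% and 2.23% of all genes. The lower genes were 3 of 9 kinases and assembly factors, 1 of 6 inhibitors, 3 of 13 in the retinoblastoma and E2F list, 2 of 7 in the MuvB, B-MYB and FOXM1 list, 4 of 13 ubiquitin ligase genes and 3 of 6 phosphorylation switches, with 0 of 15 other cyclins. Named after their values were seen, they included MYBL2 (B-MYB) at −0.68 ± 0.051, TFDP1 at −0.81 ± 0.078 and CDK1 at −0.56 ± 0.091. The gene called higher was CDKN1A (p21), an inhibitor of cyclin-CDK complexes, at 0.61 ± 0.049 (adjusted p = 0.000188). Its signal was 6997 and 6414 in EXOSC5KO and 3449 and 4929 in NONT, with no overlap. Of the 6 U2OS markers, VIM, SPARC and COL1A1 were also called lower in this contrast, and their part in the cyclin result was not tested. On the spike-in scale 0 of the 69 were called.

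For each cyclin, the gene with the most similar pattern over the 12 libraries was found among 9920 genes with an untreated mean of at least 100, as Pearson's r of values centred on the median gene. The libraries share the drug contrast, which sets most of these values, so no p is given. The pattern of CCNA2 was most like that of CDCA5 (r = 0.996), CCNF most like FAM83D (0.995), CCNB1 most like TPX2 (0.969) and CCNB2 most like DNAJC9 (0.966). CCND1 was closest to APPL2 (0.994), CCND2 to ARPC1B (0.992), CCND3 to TRPV4 (0.991), CCNE1 to ADORA1 (0.978) and CCNE2 to CTDSP2 (0.958). CDCA5 had a mean of 2168 in untreated and 133 in treated NONT cells, and FAM83D 1797 and 24.6.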

How the data were processed

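Polyadenylated RNA of 12 U2OS libraries was sequenced with a strand-specific kit after ERCC spike-ins had been added per counted cell. The deposited signal values were made by the authors with kallisto 0.46.1 (Ensembl, GRCh38), summed to genes as estimated counts and divided by DESeq2 size factors from the 92 ERCC rows. Whole reads could not be recovered, so no count model was used. Genes with an untreated mean of at least 10 were kept, and log2(value + 1) over all 12 libraries was fitted with limma 3.58.1 (R 4.3.3, eBayes with trend), with 1 coefficient per group and Benjamini-Hochberg adjustment over all 13811 genes. Fold changes on this scale understate those of low genes. The same fit was repeated after each library was centred on its median log2 value.

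Groups followed the sample labels, in which untreated cells received the vehicle DMSO. The 2 replicates of a group are not stated to be separate cultures, so p-values measure the spread between these samples, which may be technical. Depth was estimated from the smallest steps in the values, and counting error is largest for CCNE2 and CCNF after the drug. A wrong cell count or spike-in dose would shift every gene of that library alike.

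Gene starts and exons came from GENCODE 44 and promoters from RefSeq, both GRCh38, and 19584 of 22379 gene IDs had a symbol. All 9 cyclins were named, with the most and least changed gene in NONT of each list and the most similar gene to each cyclin. The cyclins and gene lists were chosen with earlier results of these data known. Alternatives covered the pseudocount, the filter, the trend, the scaling, a replicate block and leaving out each library. The tests were checked on simulated data.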

Additional observations from a re-analysis of the deposited data

How the results depend on the processing

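Of 208 recomputed counts of called cyclins, 201 were within 1.5 times the reported count. Of 297 recomputed triptolide fold changes on the spike-in scale, 296 were lower and no call was lost. Among 1872 recomputed fold changes over all contrasts and both scales, 42 gained a call, 15 lost one and 9 changed sign with a call in at least 1 of the fits, while a further 89 changed sign without a call in either fit. With genes of an untreated mean of at least 50, 1 cyclin (CCND2) responded differently in NUP93KO and NONT on the spike-in scale. Under the same filter 1 cyclin (CCND3) differed in untreated NUP93KO after centring, as it also did with libraries set to the same total. The share of all genes called in these fits was not determined, so these counts cannot be set against it. With the same mitochondrial mRNA sum, 5 cyclins were lower in untreated EXOSC5KO, beside 5.21% of all genes. The cause of these changes was not tested.

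Under median centring, the direction in triptolide depended on the scaling or filter for CCNB2, CCND3 and CCNB1. By the median of ratios CCNB2 was −0.26 in NONT, −0.38 in NUP93KO and −0.33 in EXOSC5KO. With libraries set to the same total it was −0.57, −0.71 and −0.61, and CCND3 was −0.034 in NONT and −0.16 in NUP93KO. Without a filter on low values, which moves the median gene, CCNB1 was called higher in NONT at 0.20 (limma, adjusted p = 0.0455), whereas the median of ratios called it lower at −0.57 (limma, adjusted p = 0.000176).

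Leaving out 1 library at a time gave 0 to 7 cyclins with another response in NUP93KO or EXOSC5KO than in NONT on the spike-in scale. The highest counts came without NONT untreated replicate 1, where far more of all genes passed as well. In untreated EXOSC5KO after centring, the CCNA2 call depended on the library left out.

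With the replicate number as a block, the counts of called cyclins on the spike-in scale were 9, 7 and 7 in NONT, NUP93KO and EXOSC5KO under triptolide and 0 in the other contrasts, and after centring 8, 8 and 7, with 3 in untreated EXOSC5KO. The share of all genes called with the block was not determined, so these counts describe only how the cyclin calls moved. Libraries with the same number did not deviate together (correlations of −0.053 to 0.044), so they share only a number.

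Depth limits CCNE2 most, where treated libraries held signals of 17.0 to 51.4 at 0.488 to 1.76 per read.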
